A study of Homo sapiens with 48 samples.

Results

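ADAMTS2, SLC30A3, PDLIM3 and TMEM37 are 4 genes whose transcripts were at least 2-fold higher with the inhibitor CPI-0209 than with its vehicle in each of 8 human bladder cancer cell lines. They were selected on that difference, the fitted fold change of CPI-0209 over DMSO in every line, so their rises are described here and not tested. They are 4 of 10 such genes among 13011 genes tested in all 8 lines, and the count table held 35535 genes. RNA sequencing covered 48 libraries of the established lines 639V, HT1197, HT1376, KU1919, SW780, T24, TCCSUP and VMCUB. Each line had 3 libraries of cells given DMSO, the vehicle, and 3 of cells given 250 nM CPI-0209, an inhibitor of EZH2, with a treatment time of 4 days. The media differed between lines (MEM, DMEM, RPMI or McCoy's), so line and medium cannot be told apart. Each line is 1 culture model, and nothing in the labels says that the 3 libraries of a group came from separate cultures. The spread between them may therefore be technical.

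PRC2, a Polycomb repressive complex, silences genes by methylating histone H3, and EZH2 is its usual catalytic subunit. Genes carrying this mark in differentiated cells are often developmental or tissue-restricted genes with CG-rich promoters, and they are transcribed at low levels. The 4 genes come from different tissue programmes. ADAMTS2 encodes a secreted metalloprotease that removes the N-terminal propeptide of fibrillar procollagens, SLC30A3 encodes the zinc transporter ZnT3, which loads zinc into synaptic vesicles, PDLIM3 encodes a PDZ-LIM protein that binds alpha-actinin at muscle Z discs, and TMEM37 encodes a membrane protein related to the gamma subunits of voltage-gated calcium channels.

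On GRCh38, with GENCODE 29 gene models, ADAMTS2 (ENSG00000087116) lies at chr5:179110851-179345430 on the minus strand with 8726 bases of merged exons. SLC30A3 (ENSG00000115194) lies at chr2:27253684-27275817 on the minus strand with 5978 exon bases, and PDLIM3 (ENSG00000154553) at chr4:185500660-185535612 on the minus strand with 9117. TMEM37 (ENSG00000171227) lies at chr2:119429901-119438520 on the plus strand and has 2292 exon bases. Promoter sequences of 3 of the 4 genes were matched in a RefSeq table of 35116 promoters (GRCh38.p14). They are shown because CG content, which the choice of genes did not use, differs among them. Each is written 5′ to 3′ on the strand of its gene, covers only bases that lie in no GENCODE exon, and has every CG dinucleotide in capitals.
ADAMTS2, chr5:179345462-179345711: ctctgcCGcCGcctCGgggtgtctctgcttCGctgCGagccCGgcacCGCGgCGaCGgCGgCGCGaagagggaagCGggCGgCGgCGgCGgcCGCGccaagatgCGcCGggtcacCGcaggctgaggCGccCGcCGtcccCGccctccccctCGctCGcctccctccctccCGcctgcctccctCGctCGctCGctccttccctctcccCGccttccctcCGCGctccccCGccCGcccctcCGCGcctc
PDLIM3, chr4:185535613-185535757: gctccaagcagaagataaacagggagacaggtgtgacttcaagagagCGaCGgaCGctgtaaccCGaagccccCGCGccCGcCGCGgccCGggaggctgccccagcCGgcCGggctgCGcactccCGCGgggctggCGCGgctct
SLC30A3, chr2:27275347-27275420: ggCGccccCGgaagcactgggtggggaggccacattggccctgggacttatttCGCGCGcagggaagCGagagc

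Over the 250 bases before the start site, the ADAMTS2 promoter had a GC content of 80.0% and 40 CG dinucleotides. Its ratio of observed to expected CG was 1.08, at percentile 96.2 of the table. Only 2.16% of the promoters held as many CG. The PDLIM3 promoter had 73.6% GC, 29 CG and a ratio of 0.86 (percentile 77.2), and 14.1% of promoters held as many. At the SLC30A3 start site nearest its 5′ end, GC content was 62.8% with 16 CG and a ratio of 0.65 (percentile 56.2), and 41.0% of promoters held as many. A second SLC30A3 start site in the table, at base 27263047 of chromosome 2, had 73.6% GC and 23 CG in its 250 bases. Its ratio was 0.77 (percentile 66.3), and 25.8% of promoters held as many CG. Which SLC30A3 start is used in these lines was not tested. The median promoter had 58% GC, 11 CG and a ratio of 0.56, and 93.9% of promoters held at least 1 CG, which reads the same on both strands. The 3 printed promoters thus ran from among the richest of the table in CG (ADAMTS2) to near its middle (SLC30A3 at the start nearest its 5′ end). The second SLC30A3 start was richer in CG than the first.

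Levels are given as CPM, counts scaled to a library size of 1000000. Library totals ranged from 26481418 to 50916911 counts, with a median of 41665645. The transcript of EZH2, the target, stood between 42.8 and 101 CPM in DMSO, and its log2 fold change with CPI-0209 lay between -0.03 in SW780 and 0.16 in TCCSUP. Of 15 epithelial and urothelial markers, 8 (639V) to 14 (SW780) reached 1 CPM in DMSO. KRT20 was under 1 CPM in DMSO in all 8 lines and UPK3A in 7, and in 639V EPCAM and CDH1 were under 1 CPM too. Over all genes tested in a line (15474 to 16897), edgeR called 11.8% higher in HT1197, 23.7% in HT1376, 9.3% in KU1919, 30.8% in SW780, 9.37% in T24, 22.1% in 639V, 25.7% in TCCSUP and 16.4% in VMCUB. A call is an adjusted p under 0.05 (quasi-likelihood test, Benjamini-Hochberg). The 4 genes were called higher in 8 of 8 lines each, and nothing is read from that since the same contrast chose them. In 12 of their 32 tests (37.5%) no DMSO library reached the level of the low-count filter, so the gene was tested in that line through its CPI-0209 libraries. This held for 2.34% of the tests of all genes.

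In all 32 combinations of gene and line, the lowest CPI-0209 library lay above the highest DMSO library. The same held for 16.9% of tested genes in HT1197, 26.3% in HT1376, 19.1% in KU1919, 35.6% in SW780, 17.5% in T24, 27.1% in 639V, 27.3% in TCCSUP and 24.6% in VMCUB. The narrowest gap was that of SLC30A3 in HT1197, where the lowest treated library was 1.5 times the highest control, and the widest was that of PDLIM3 in TCCSUP, at 27.3 times. Rises of at least 2-fold in every line were found for 0.0769% of genes tested in all 8. Means below are ± SD over n = 3 libraries, and log2 fold changes are CPI-0209 over DMSO ± SE.

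**Figure D1:**
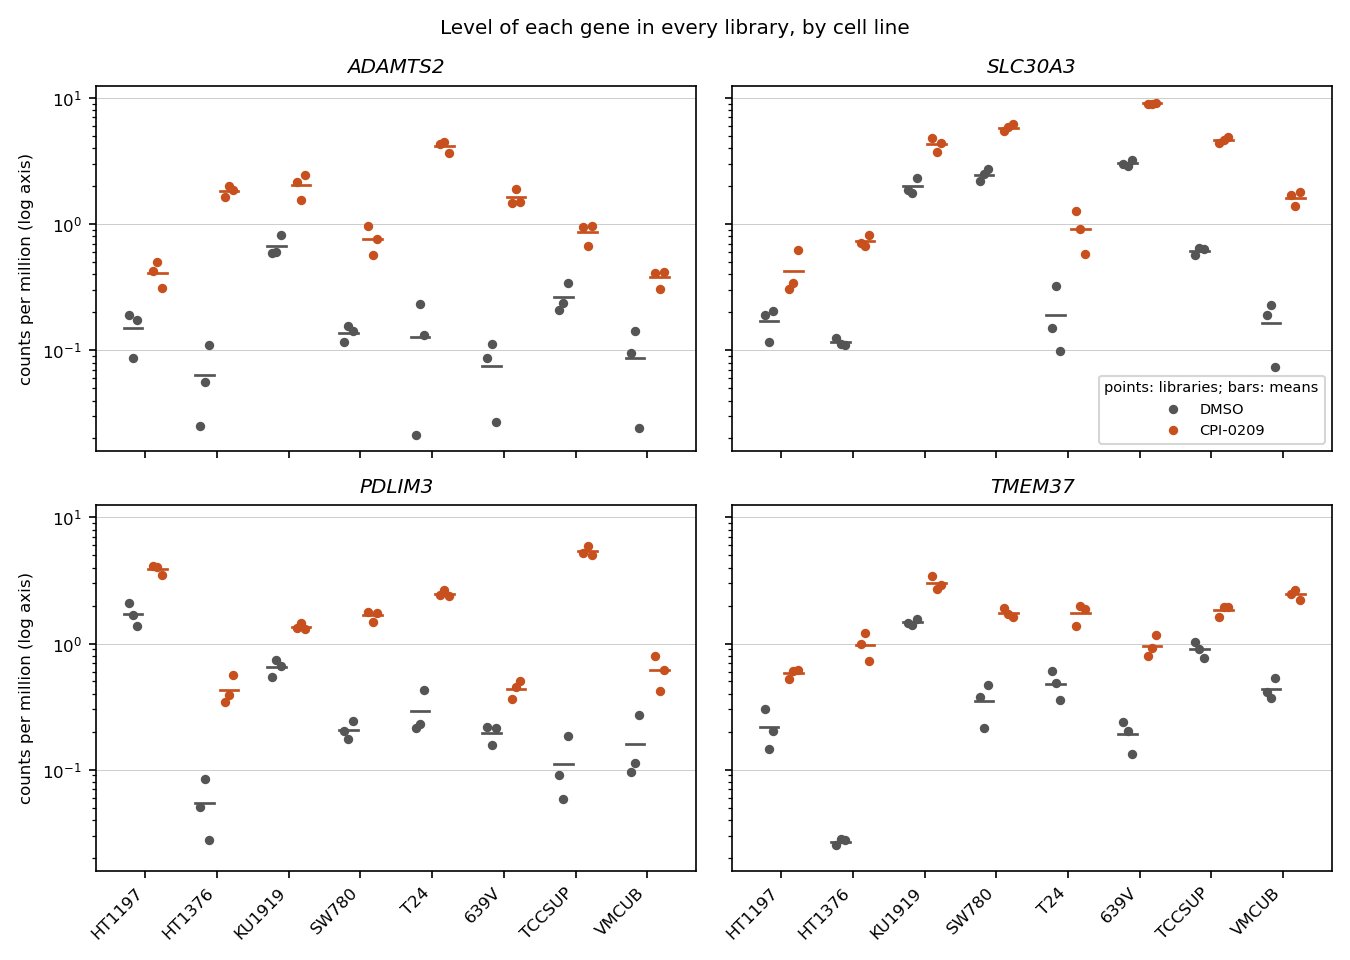
Level of each gene in every library, in CPM on a log axis, by cell line, with DMSO libraries in grey, CPI-0209 libraries in orange and short bars for the group means. In each of the 32 pairs of groups all orange points lie above all grey points, and the height of the grey points varies widely between lines. The genes were chosen on the difference between orange and grey points.

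ADAMTS2 was nearly silent in most lines under DMSO and rose by very different amounts. In T24 it stood at 0.0215, 0.231 and 0.131 CPM in the DMSO libraries and at 4.35, 4.49 and 3.65 CPM with CPI-0209. In HT1376 the DMSO libraries held 0.0251, 0.0563 and 0.11 CPM and the treated ones 1.63, 1.99 and 1.85. The 639V libraries went from 0.0864, 0.112 and 0.0268 CPM to 1.48, 1.9 and 1.51. These 3 lines had the largest rises, with means 32.6-fold higher in T24 (log2 5.04 ± 0.48), 28.6-fold in HT1376 (4.80 ± 0.34) and 21.7-fold in 639V (4.34 ± 0.32). The DMSO means behind them rest on few counts over 3 libraries, 15 in T24, 7 in HT1376 and 10 in 639V, against 548, 174 and 265 with CPI-0209. Single DMSO libraries weighed on the first 2 values. The T24 value was 4.46 without DMSO replicate 1 and 5.92 without DMSO replicate 2. The HT1376 value was 4.40 without DMSO replicate 1 and 5.39 without DMSO replicate 3.

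Intermediate rises of ADAMTS2 were seen in SW780, from 0.116, 0.155 and 0.142 CPM to 0.969, 0.574 and 0.755 CPM. VMCUB went from 0.0953, 0.142 and 0.0244 to 0.411, 0.304 and 0.421 CPM. The means were 5.58-fold and 4.34-fold higher (log2 2.40 ± 0.33 and 2.17 ± 0.49), yet VMCUB ended at the lowest treated level of any line, 0.379 ± 0.0648 CPM.

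The smallest rises of the protease were those of TCCSUP, KU1919 and HT1197. In TCCSUP its DMSO libraries held 0.21, 0.235 and 0.343 CPM and the treated ones 0.945, 0.667 and 0.965. KU1919 started highest, at 0.59, 0.598 and 0.826 CPM, and reached 2.15, 1.55 and 2.43. HT1197 held 0.191, 0.0872 and 0.175 CPM before and 0.425, 0.499 and 0.309 CPM after treatment. The groups did not overlap in these lines either, with means 3.27-fold, 3.04-fold and 2.72-fold higher (log2 1.74 ± 0.30, 1.63 ± 0.24 and 1.44 ± 0.41).

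Ordered by DMSO mean, KU1919 (0.671 ± 0.134 CPM) and TCCSUP (0.263 ± 0.0702) each stood clear of the next line. From HT1197 (0.151) through SW780, T24, VMCUB and 639V down to HT1376 (0.0638), the libraries of neighbouring lines overlapped. With CPI-0209, T24 stood alone at the top at 4.16 ± 0.45 CPM, then came KU1919, HT1376 and 639V with overlapping neighbours, then TCCSUP and SW780, and last HT1197 and VMCUB. ADAMTS2 thus changed its order among lines: 14 of 28 pairs of lines kept the same order in both treatments. The ratio of the highest to the lowest line was 10.5 in DMSO and 11 with CPI-0209.

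Other genes of procollagen processing rose in many lines. Of 139 tests of 23 related genes in 8 lines (other ADAMTS proteases, the C-proteinases BMP1, TLL1 and TLL2, and the enhancers PCOLCE and PCOLCE2), 68 were called higher (48.9%) and 5 lower (3.6%). Over all genes, 18.8% of 128302 tests were called higher and 13.8% lower. The median log2 fold change of these tests was 0.46, against 0.00 over all genes. In 17 of the 139 tests the gene passed the low-count filter with no DMSO library at its level, so part of the count is fixed by the filter. ADAMTS7, a protease of cartilage and vessel matrix, rose in 8 of 8 lines, from 0.50 ± 0.06 in 639V (edgeR adjusted p = 8.23e-06) to 2.13 ± 0.16 in VMCUB (adjusted p = 0.000233). ADAMTS15 rose in 7 of 8, by 4.11 ± 0.31 in HT1376 and 2.88 ± 0.15 in 639V. In HT1376 it passed the filter only through treated libraries (0.127 to 2.18 CPM). The closest relatives of ADAMTS2, the procollagen N-proteinases ADAMTS14 and ADAMTS3, rose in 5 of 6 and 5 of 8 lines tested. ADAMTS14 had a change of 5.16 ± 0.49 in HT1376 and 4.25 ± 0.39 in 639V. It did not pass the low-count filter in T24, and in HT1376 and SW780 it passed only through treated libraries. ADAMTS3 passed only through treated libraries in HT1197, SW780 and 639V. Its calls in SW780 (0.0199 to 0.281 CPM) and 639V (0.0412 to 0.641 CPM) were thus close to fixed by the filter.

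Fibrillar procollagens, the family that holds the substrates of ADAMTS2, were called higher in 32 of 56 tests (57.1%) and lower in 4 (7.14%), with a median of 0.65. The treated libraries alone brought 8 of the 56 through the filter. COL1A1, a chain of type I collagen, rose in 7 of 8 lines, with 1.85 ± 0.07 in SW780 and 0.63 ± 0.08 in TCCSUP, and was 0.07 ± 0.04 in HT1197 (adjusted p = 0.271). Its DMSO level differed widely between lines, from 3.39 CPM in T24 to 4150 CPM in TCCSUP. COL5A3 rose in 639V (2.11) and TCCSUP (2.06), from DMSO means of 1.01 and 0.932 CPM. It was also called higher in T24 (0.0143 to 0.288 CPM), KU1919 (0.0828 to 0.569) and HT1376 (0.16 to 4.27), where it passed the filter only through the CPI-0209 libraries. COL5A1 rose in 6 of 8 and COL11A2 in 4 of 8. Fibroblast markers, of which COL1A1, COL1A2 and COL3A1 are also in the procollagen list, were called higher in 39 of 62 tests (62.9%) and lower in 5 (8.06%), against 18.8% and 13.8% of all genes, and all 10 reached 1 CPM in some group. Of their 62 tests, 6 passed the filter only through treated libraries, so part of this count too is fixed by the filter. The summed level of the fibroblast markers in a library ranged from 5.88 to 9840 CPM in DMSO and from 19.0 to 12700 CPM with CPI-0209. PDGFRA, a growth factor receptor of fibroblasts, was called higher in 7 lines, in 3 of which (HT1376, T24 and VMCUB) it passed the filter only through treated libraries, from 0.0365, 0.056 and 0.144 CPM to 0.415, 2.42 and 1.62. THY1 rose in 6 of 8. The part of these markers in the ADAMTS2 values was not tested. In bulk RNA a change in the number of cells of a type and a change in RNA per cell cannot be told apart.

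SLC30A3 had the narrowest range of rises of the 4 genes, and lines that started high stayed high. The highest levels were those of 639V, whose libraries went from 2.98, 2.9 and 3.25 CPM to 8.99, 8.97 and 9.18. SW780 went from 2.2, 2.48 and 2.73 CPM to 5.45, 5.83 and 6.18. In KU1919 the DMSO libraries held 1.86, 1.77 and 2.34 CPM and the treated ones 4.8, 3.73 and 4.39. These 3 lines already transcribed the zinc transporter in DMSO, and their means rose 2.98-fold, 2.36-fold and 2.16-fold (log2 1.57 ± 0.08, 1.20 ± 0.11 and 1.12 ± 0.15).

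The largest fold rises of SLC30A3 were in lines that started lower. VMCUB went from 0.191, 0.228 and 0.0732 CPM to 1.71, 1.38 and 1.78. TCCSUP rose from 0.571, 0.647 and 0.632 CPM to 4.38, 4.67 and 4.92. HT1376 libraries held 0.125, 0.113 and 0.11 CPM in DMSO and 0.709, 0.675 and 0.825 with the inhibitor. The means were 9.92-fold, 7.55-fold and 6.35-fold higher (log2 3.38 ± 0.33, 2.94 ± 0.16 and 2.65 ± 0.30), and TCCSUP ended among the lines that had started high.

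In T24 the libraries were the most scattered for this gene, at 0.15, 0.324 and 0.0981 CPM in DMSO and 1.26, 0.91 and 0.578 CPM with CPI-0209. HT1197 held 0.191, 0.116 and 0.204 CPM and then 0.307, 0.341 and 0.619. T24 rose 4.81-fold (log2 2.22 ± 0.48) and HT1197 2.48-fold (1.29 ± 0.42). Without DMSO replicate 2 the T24 value was 2.82. Without CPI-0209 replicate 3 the log2 fold change in HT1197 was 0.93, under the 2-fold limit of the choice.

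By DMSO mean, 639V (3.04 ± 0.182 CPM) stood clear of SW780 (2.47), which overlapped KU1919 (1.99). TCCSUP (0.617 ± 0.0405) stood apart on both sides, and T24, HT1197, VMCUB and HT1376 overlapped their neighbours between 0.191 and 0.116 CPM. With CPI-0209 the order was 639V (9.05 ± 0.115), SW780 (5.82), TCCSUP and KU1919 with overlapping libraries, VMCUB (1.62), T24 and HT1376 with overlapping libraries, and HT1197 (0.422 ± 0.171). SLC30A3 kept its order in 24 of 28 pairs of lines. The highest line was 26.2 times the lowest in DMSO and 21.4 times with CPI-0209.

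The other zinc transporters of the SLC30 and SLC39 families did not move in 1 direction. Of 152 tests of 23 genes, 26 were called higher (17.1%) and 29 lower (19.1%), against 18.8% and 13.8% of all genes, with a median of -0.02. With library totals in place of TMM scaling the zinc transporters had 33 higher and 19 lower calls and a median of 0.04, and all genes 29851 higher and 11912 lower in place of 24141 and 17659. SLC30A4, which moves zinc into vesicles, rose in 5 of 8 lines, by 0.96 ± 0.07 in SW780 at most. The zinc importer SLC39A8 rose in 5 of 8, by up to 0.81 ± 0.08 in HT1376. SLC39A1 and SLC39A4, importers of the plasma membrane, fell in 4 of 8 lines each, with lowest values of -0.71 in SW780 and -0.64 in VMCUB. Metallothioneins, which bind zinc in the cytosol, were called higher in 13 of 37 tests (35.1%) and lower in 4 (10.8%). MT1F rose in 5 of 8 lines, by 1.69 ± 0.22 in TCCSUP, and MT2A fell in 4 (3 with library totals) and rose in 1. The metallothionein genes are near-identical copies, so how reads were split between them is uncertain.

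Neuron and synapse markers were called higher in 24 of 49 tests (49.0%) and lower in 1 (2.04%), against 18.8% and 13.8% of all genes, with summed levels of 4.33 to 62.3 CPM in DMSO libraries and 7.34 to 90.8 CPM in treated ones. SLC17A7, the vesicular glutamate transporter of the synapses where ZnT3 is found, is itself 1 of the 10 genes at least 2-fold higher in every line, so its rise is a description too. Its calls in 7 of 8 lines are among the 24, so part of that share comes from the rule that chose the genes. It went from 0.84 to 1.95 CPM in DMSO to 1.78 to 10.6 CPM with CPI-0209, with its largest change in 639V (2.43 ± 0.09). SLC17A6 and STMN2 stayed under 1 CPM in all 16 groups, and STMN2 was at 0 counts in 33 of 48 libraries. The part of these markers in the SLC30A3 values was not tested.

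PDLIM3 had both the largest single rise and some of the smallest. In TCCSUP its DMSO libraries held 0.0901, 0.0588 and 0.184 CPM and its CPI-0209 libraries 5.22, 5.93 and 5.04 CPM. The TCCSUP mean was 48.5-fold higher (log2 5.55 ± 0.25), on 12 and 617 counts, which took the gene from a DMSO mean above that of HT1376 alone to the highest treated mean of the 8 lines. Without DMSO replicate 3, the highest control, the log2 value was 6.14.

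PDLIM3 in T24 went from 0.215, 0.231 and 0.425 CPM to 2.41, 2.65 and 2.4. SW780 held 0.202, 0.174 and 0.243 CPM in DMSO and 1.79, 1.47 and 1.74 with CPI-0209. HT1376 had the lowest levels, 0.0502, 0.0845 and 0.0275 CPM (6 counts) before and 0.341, 0.391 and 0.561 CPM after treatment. These 3 lines rose by similar factors, 8.57-fold, 8.08-fold and 7.97-fold (log2 3.15 ± 0.29, 2.97 ± 0.23 and 2.94 ± 0.47), from starting means that spanned 0.054 to 0.29 CPM. In VMCUB PDLIM3 went from 0.0953, 0.114 and 0.269 CPM to 0.801, 0.421 and 0.616 CPM, a 3.85-fold rise (1.93 ± 0.45), or 2.52 on the log2 scale without DMSO replicate 3.

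The smallest PDLIM3 rises joined the 2 highest starting lines and 1 low one. HT1197, the highest, held 2.08, 1.69 and 1.37 CPM in DMSO and 4.15, 4.02 and 3.46 with CPI-0209. KU1919 held 0.546, 0.736 and 0.66 CPM and then 1.32, 1.45 and 1.31. The 639V libraries held 0.216, 0.157 and 0.215 CPM and then 0.365, 0.452 and 0.505. Means were 2.27-fold, 2.1-fold and 2.25-fold higher (log2 1.20 ± 0.15, 1.06 ± 0.19 and 1.15 ± 0.31). Without DMSO replicate 1, the KU1919 value was 0.94.

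HT1197 (1.71 ± 0.353 CPM) and KU1919 (0.647 ± 0.0954) stood clear at the top of the DMSO order. T24, SW780, 639V, VMCUB, TCCSUP and HT1376 followed with overlapping neighbours, from 0.29 to 0.054 CPM. With CPI-0209, TCCSUP (5.39 ± 0.47), HT1197, T24, SW780 and KU1919 (1.36 ± 0.0762) were each separate from the next line, as was KU1919 from VMCUB (0.613). VMCUB, 639V and HT1376 overlapped their neighbours. Of 28 pairs of lines, 19 kept their order, and the ratio of highest to lowest line was 31.7 in DMSO and 12.5 with CPI-0209.

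PDZ-LIM proteins and alpha-actinins, the family and partners of PDLIM3, did not move in 1 direction. Of 66 tests of 10 genes, 12 were higher (18.2%) and 19 lower (28.8%), against 18.8% and 13.8% of all genes, with a median of -0.07. ACTN2, the alpha-actinin of striated muscle, rose in 4 of 6 lines, by 3.99 ± 0.28 in TCCSUP (edgeR adjusted p = 1.16e-07), 3.72 ± 0.49 in SW780, 2.49 ± 0.46 in HT1376 and 1.29 ± 0.31 in T24. In the first 3 of these it passed the filter only through treated libraries. ACTN2 was 1.39 ± 0.63 in VMCUB (edgeR adjusted p = 0.134) and 0.65 ± 0.19 in KU1919 (edgeR adjusted p = 0.0767). It did not pass the filter in HT1197 and 639V. The widely expressed PDLIM2 fell in 4 of 8 lines (3 with library totals), with -0.45 in SW780. PDLIM1 fell in 4 lines and rose in HT1197 and 639V, and PDLIM7 rose in 4 and fell in KU1919 and 639V. Muscle markers were called higher in 18 of 54 tests (33.3%) and lower in 3 (5.56%), against 18.8% and 13.8% of all genes, with summed levels of 17.3 to 385 CPM in DMSO and 28.6 to 538 CPM with CPI-0209. TNNT1, a troponin of slow skeletal muscle, rose in 7 of 8 lines, by 3.07 ± 0.09 in HT1376 at most. The myogenic factors MYOD1 and MYOG stayed under 1 CPM in all groups and were at 0 counts in 37 and 38 of 48 libraries. The part of the muscle markers in the PDLIM3 values was not tested.

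TMEM37 had the widest spread between lines in DMSO, which rested on HT1376, and the narrowest with CPI-0209. In HT1376 it was almost absent, at 0.0251, 0.0282 and 0.0275 CPM in DMSO, 1 count in each library, and reached 0.998, 1.21 and 0.726 CPM with CPI-0209. The ratio of means was 36.3, with a 95% counting interval of 12 to 179 on 3 and 94 counts that covers counting error only. This was the largest rise of the gene (log2 5.03 ± 0.43).

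Rises of TMEM37 were intermediate in VMCUB, SW780, 639V and T24. VMCUB went from 0.413, 0.37 and 0.537 CPM to 2.49, 2.65 and 2.2. SW780 went from 0.375, 0.213 and 0.465 CPM to 1.92, 1.71 and 1.62. The 639V libraries held 0.238, 0.202 and 0.134 CPM and then 0.799, 0.923 and 1.17. Their means rose 5.56-fold, 4.97-fold and 5.04-fold (log2 2.51 ± 0.19, 2.29 ± 0.24 and 2.29 ± 0.29). T24 held 0.602, 0.485 and 0.36 CPM in DMSO and 1.37, 1.98 and 1.87 CPM with CPI-0209, a 3.61-fold rise (1.84 ± 0.25).

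The smallest TMEM37 rises were in HT1197, TCCSUP and KU1919. HT1197 went from 0.3, 0.145 and 0.204 CPM to 0.519, 0.604 and 0.619. TCCSUP held 1.02, 0.912 and 0.764 CPM in DMSO and 1.63, 1.96 and 1.95 with the inhibitor. KU1919 held 1.46, 1.4 and 1.55 CPM and then 3.44, 2.72 and 2.89. Means were 2.68-fold, 2.06-fold and 2.05-fold higher (log2 1.41 ± 0.34, 1.07 ± 0.20 and 1.03 ± 0.14). The rise in TCCSUP was 0.95 without DMSO replicate 3, and that in KU1919 was 0.96 without CPI-0209 replicate 1.

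KU1919 (1.47 ± 0.0753 CPM) and TCCSUP (0.899 ± 0.129) led the DMSO order of TMEM37, each clear of the next line. T24, VMCUB, SW780, HT1197 and 639V overlapped their neighbours between 0.482 and 0.191 CPM, and HT1376 (0.0269 ± 0.00162) was separate at the bottom. With CPI-0209, KU1919 (3.02 ± 0.373) and VMCUB (2.45) stood clear, TCCSUP, SW780 and T24 overlapped around 1.74 to 1.85 CPM, HT1376 and 639V overlapped at 0.977 and 0.964, and HT1197 was lowest at 0.581 ± 0.0537. Order was kept in 22 of 28 pairs. The ratio of highest to lowest line fell from 54.6 (counting interval 18.4 to 267) to 5.2. Without HT1376 the DMSO ratio was 7.7.

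Voltage-gated calcium channel subunits, of which TMEM37 resembles the gamma subunits, rose in most tests. The list also holds pore-forming, cytoplasmic and other subunits. Of 117 tests of 26 genes, 70 were called higher (59.8%) and 1 lower (0.855%), against 18.8% and 13.8% of all genes, with a median of 0.70. In 12 of the 117 no DMSO library reached the filter. CACNA1G, a pore-forming subunit of T-type channels, was called higher in 7 lines, from 1.15 ± 0.32 in SW780 to 2.62 ± 0.38 in T24, and passed the filter in HT1376 and T24 only through treated libraries. CACNG8, a gamma subunit, rose in 6 of 8, by 2.09 ± 0.18 in VMCUB, and was -0.03 ± 0.05 in 639V (adjusted p = 0.716). The cytoplasmic subunits CACNB3 and CACNB4 rose in 6 and 5 of 8 lines, CACNB3 by at most 0.52 ± 0.05 and CACNB4 by up to 2.26 in HT1376. Leukocyte markers were called higher in 6 of 30 tests (20%) and lower in 7 (23.3%), against 18.8% and 13.8% of all genes. Endothelial markers were called higher in 11 of 27 (40.7%) and lower in 3 (11.1%), and 6 of the 27 passed the filter only through treated libraries.

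**Figure D2:**
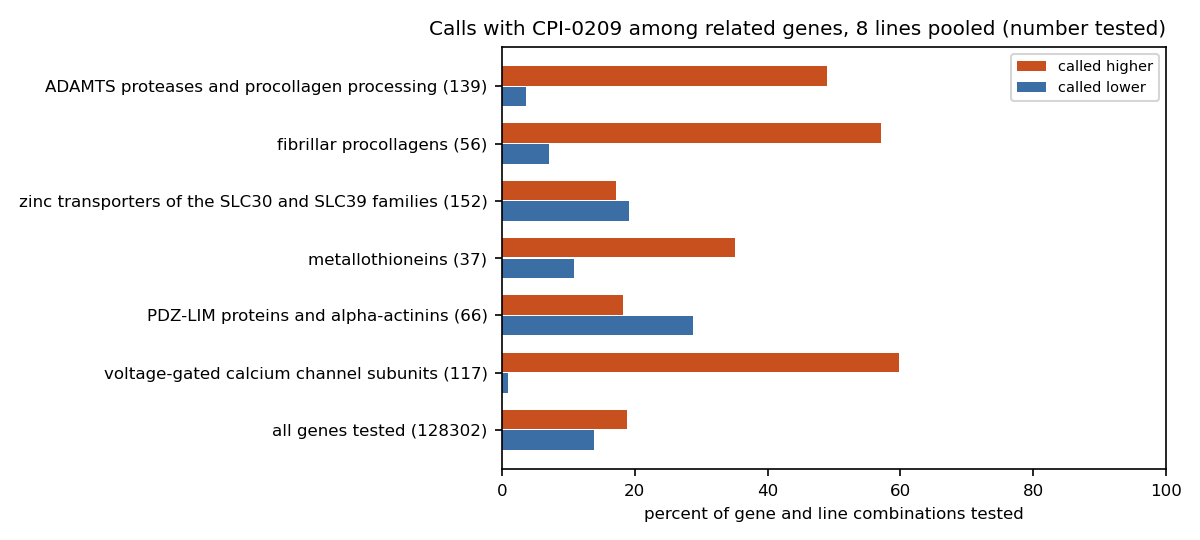
Percent of tests (gene and line combinations, number in brackets) called higher (orange) or lower (blue) with CPI-0209, for 6 lists of genes related to the 4 genes and for all genes tested. Procollagen processing genes, fibrillar procollagens and calcium channel subunits were called higher in 48.9%, 57.1% and 59.8% of tests against 18.8% of all, and zinc transporters in 17.1%.

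Compared per kilobase of exon, TMEM37 had the highest and ADAMTS2 the lowest DMSO level of the 4. The median line held 0.173 CPM per kb of TMEM37, 0.0676 of SLC30A3, 0.022 of PDLIM3 and 0.0152 of ADAMTS2 in DMSO. With CPI-0209 the medians were 0.761, 0.496, 0.166 and 0.143 CPM per kb, in the same order. All these levels are low: among the genes tested in a line, DMSO levels of the 4 genes lay between percentile 0.27 (ADAMTS2 in HT1197) and 28.9 (SLC30A3 in SW780). In 12 of the 32 combinations, ADAMTS2 in HT1197 among them, no DMSO library reached the low-count filter. A low percentile was close to fixed there. By size of the log2 rise, ADAMTS2 in T24 ranked 34 of 15492 genes, PDLIM3 in TCCSUP 40 of 16147 and SLC30A3 in VMCUB 62 of 15474. In each of these cases the gene passed the filter only through treated libraries. At the other end, TMEM37 in TCCSUP ranked 1641 of 16147. The ranks use the contrast that chose the genes and are descriptive.

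**Figure D3:**
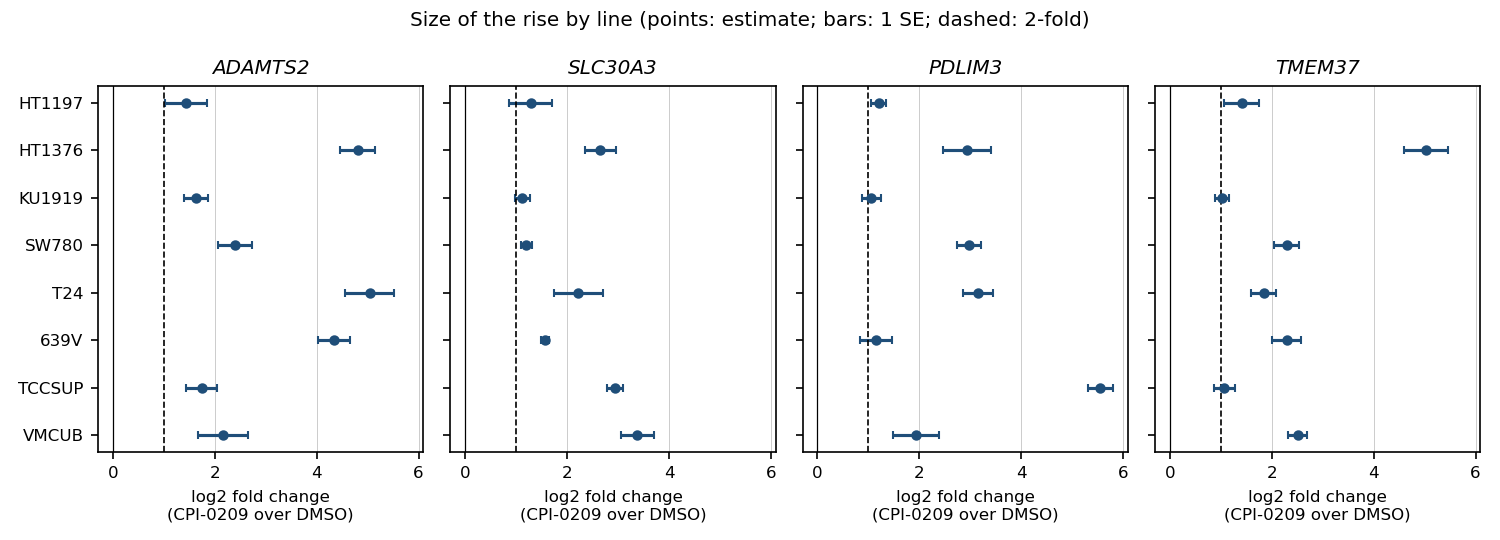
Log2 fold change of CPI-0209 over DMSO in each line for each gene, with points for the estimate, bars for 1 SE and a dashed line at 2-fold. Values run from 1.03 (TMEM37 in KU1919) to 5.55 (PDLIM3 in TCCSUP), and the line with the largest rise differs for each gene.

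The starting levels of the 4 genes differed between lines, a contrast the choice did not use. An F test across the 24 DMSO libraries gave a log2 difference between highest and lowest line of 3.28 for ADAMTS2 (edgeR adjusted p = 8.41e-06), 4.63 for SLC30A3 (adjusted p = 3.92e-15), 4.85 for PDLIM3 (adjusted p = 6.71e-11) and 5.56 for TMEM37 (adjusted p = 5.41e-11). Such differences were the rule, since 97.5% of 18643 genes tested passed. HT1376 had the lowest DMSO mean for all 4 genes. Without it the ratio of highest to lowest line was 8.92 for ADAMTS2, 18.5 for SLC30A3, 15.4 for PDLIM3 and 7.7 for TMEM37.

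Starting level and size of rise were set side by side. KU1919, highest in DMSO for ADAMTS2 and TMEM37, had the smallest rise of SLC30A3 (1.12), PDLIM3 (1.06) and TMEM37 (1.03). HT1376, lowest in DMSO for all 4, had rises of 4.80, 2.65, 2.94 and 5.03, the largest of any line only for TMEM37. HT1197 rose by 1.20 to 1.44 in every one of the 4 genes, although it started highest of all lines for PDLIM3 and among the lower lines for SLC30A3 and TMEM37. TCCSUP rose by 5.55 in PDLIM3 and by 1.07 in TMEM37. A low start thus went with both small and large rises, as PDLIM3 rose 2.25-fold in 639V and 48.5-fold in TCCSUP from DMSO means of 0.196 and 0.111 CPM. The fold rise contains the starting level, so the 2 measures share their DMSO libraries.

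**Figure D4:**
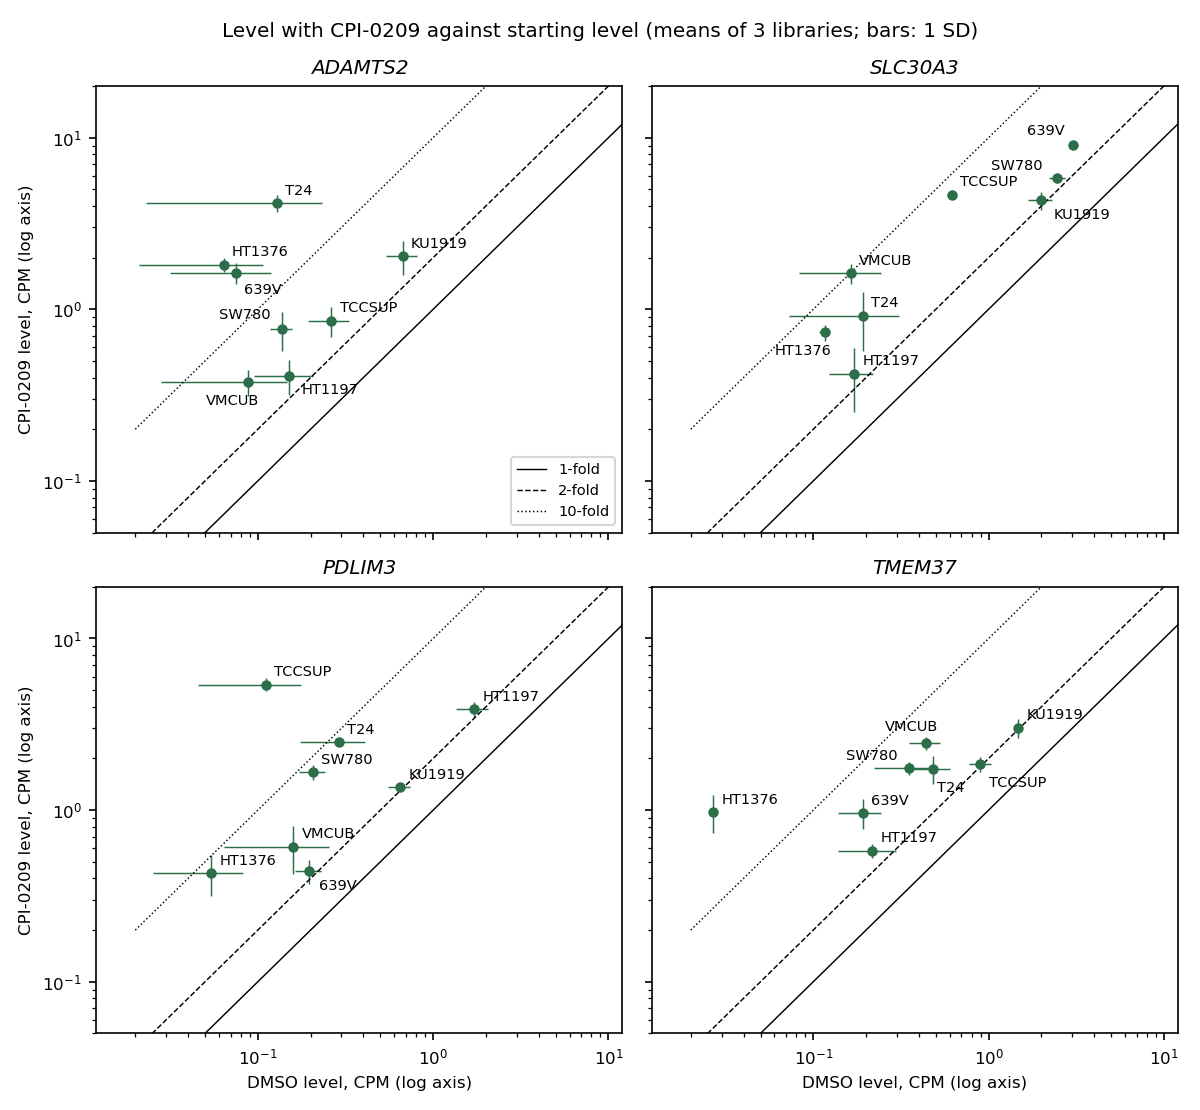
Mean level with CPI-0209 against mean level in DMSO for each line, in CPM on log axes, with bars of 1 SD over 3 libraries and lines for 1-fold, 2-fold and 10-fold. Every line lies above the 2-fold line. PDLIM3 in TCCSUP (0.111 to 5.39 CPM), TMEM37 in HT1376 (0.0269 to 0.977 CPM) and ADAMTS2 in T24, HT1376 and 639V lie above the 10-fold line.

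The genes whose pattern was most like each member were found by Pearson's r of log2(mean CPM + 0.1) over the 16 group means, among genes tested in all 8 lines. These means share libraries and include the contrast that chose the members, so r is descriptive. For ADAMTS2 they were CD6 (0.82), ELFN1 (0.81) and TMOD1 (0.78), and for SLC30A3 EFNB3 (0.93), RIMS3 (0.90) and ABCC6 (0.90). TENM4 (0.77), HUNK (0.75) and RASGRP1 (0.74) came closest to PDLIM3, and TENT5C (0.90), TNFRSF11A (0.83) and ENSG00000278603 (0.82) to TMEM37. SLC30A3 was matched by genes with very different rises, a median log2 fold change over lines of 2.53 for EFNB3 and 0.46 for ABCC6. Between the members r ran from 0.29 for SLC30A3 with PDLIM3 to 0.76 for ADAMTS2 with TMEM37.

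Genes that start within 200 kb of the start of a member were examined as a property the choice did not use. There were 36 in the table, 30 of them tested in some line. Of their 198 tests, 29 were called higher (14.6%) and 28 lower (14.1%), against 18.8% and 13.8% over all genes. Near SLC30A3, 21 of 139 tests were higher (15.1%) and 24 lower (17.3%), near PDLIM3 6 and 2 of 34, and near TMEM37 2 and 2 of 25. ADAMTS2 had 3 pseudogenes in the window and none was tested.

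Some neighbours of SLC30A3 and PDLIM3 were called higher. CGREF1, a secreted growth regulator 157 kb downstream of the SLC30A3 start, was called higher in 7 lines, from 0.16 in 639V to 2.40 in HT1376, and in TCCSUP it passed the filter only through treated libraries. TRIM54, a muscle ring-finger protein 6.58 kb upstream, had values of 2.05 in 639V and 2.10 in VMCUB, from 0.092 to 0.364 and from 0.117 to 0.485 CPM. It passed the filter in these 2 lines only through treated libraries and was tested in no other, so a rise there was close to fixed by the filter. It falls outside the naming rule and was chosen after its values were seen. Near PDLIM3, CCDC110, 63.9 kb downstream, was called higher in 3 lines, by 2.17 in SW780 and, where treated libraries alone passed the filter, 1.92 in T24 and 3.24 in 639V, while ANKRD37 rose in 1 and fell in 2 of 8 and UFSP2 rose in 1 of 8. SNX17 and PPM1G, near SLC30A3, fell in 5 and 4 of 8 lines, or in 3 each with library totals. The TMEM37 neighbours DBI and C2orf76 passed in 2 and 1 of 8 lines, and SCTR rose in the 1 line where it was tested. The SLC30A3 promoter printed above lies between the RefSeq start of SLC30A3 and the GENCODE start of DNAJC5G, a gene on the opposite strand (chr2:27275421-27281499). It lies within the GENCODE model of SLC30A3, which runs to base 27275817 and overlaps that of DNAJC5G. DNAJC5G had at most 16 counts in any library. It was tested in 639V alone, where it passed the filter only through treated libraries (0.118 to 0.257 CPM). The sources used here do not say whether reads were counted by strand, so reads in the overlap cannot be assigned to either gene.

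**Figure D5:**
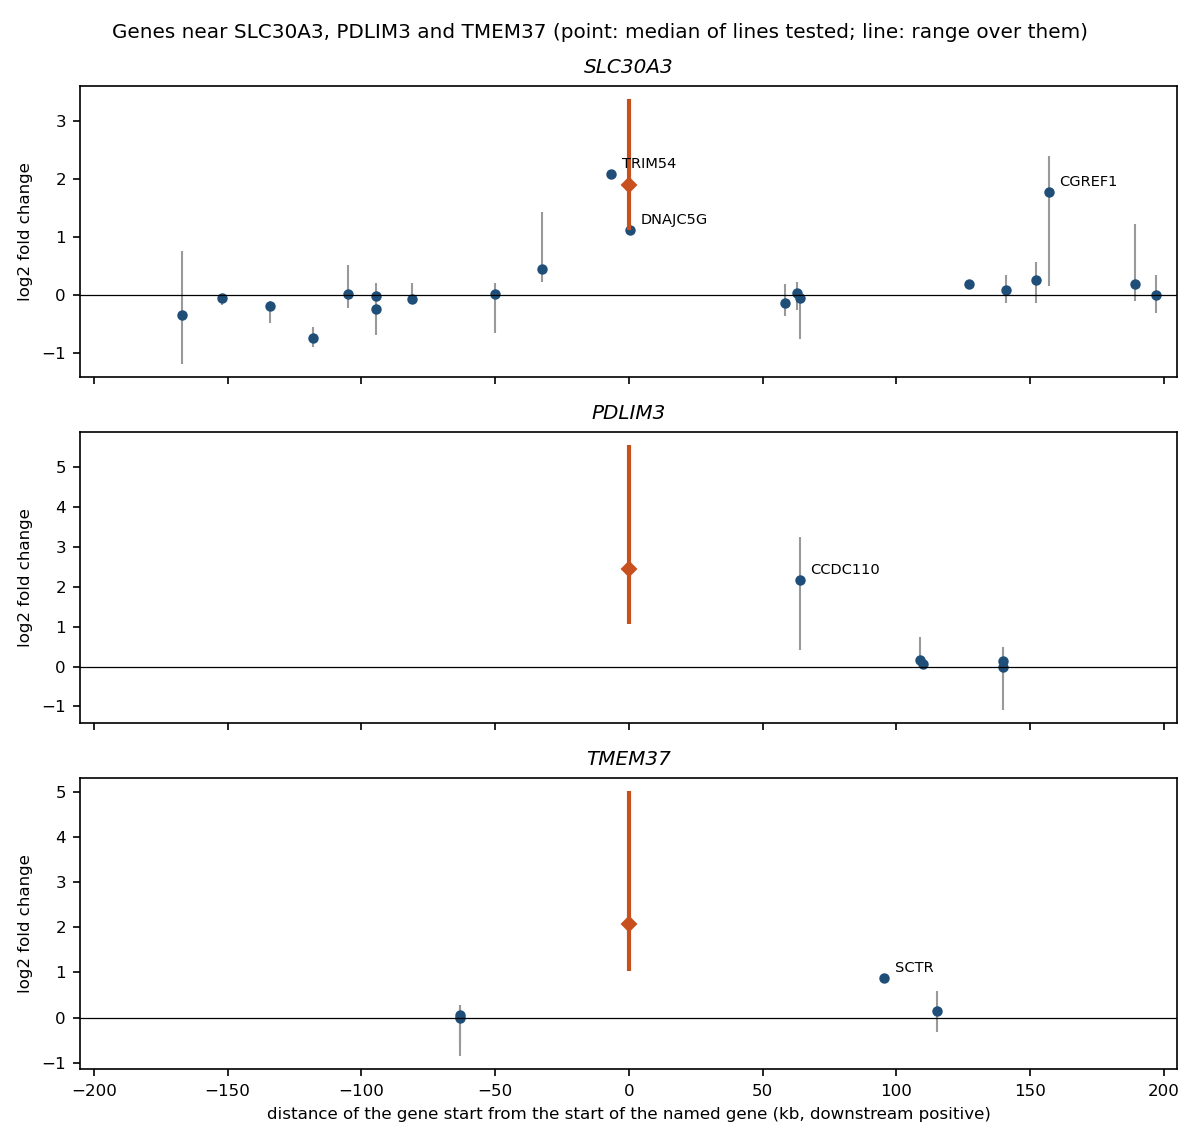
Log2 fold change of genes that start within 200 kb of SLC30A3, PDLIM3 and TMEM37 against distance from the start of that gene (kb, downstream positive), with points for the median of the lines tested and lines for the range. The named gene is the orange diamond at 0, and most neighbours lie near 0, with CGREF1, TRIM54, DNAJC5G, CCDC110 and SCTR above. DNAJC5G and SCTR were tested in 1 line each, and TRIM54 and DNAJC5G passed the filter only through treated libraries.

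Values near the 2-fold limit of the choice are given once. The genes just inside it were NSG1 (smallest log2 fold change 1.06, in HT1197), TMEM37 (1.03, in KU1919) and SLC17A7 (1.01, in HT1197), and those just outside were GUCY1A2 (0.98, in TCCSUP), CDKN1C (0.98, in HT1197) and LMO2 (0.96, in HT1197). The smallest values of the other members were 1.44 for ADAMTS2, 1.12 for SLC30A3 and 1.06 for PDLIM3. LINGO1, RTN4RL2, BMP6 and NES make up the 10. The filter on low counts bears on this number: without it 68 genes were at least 2-fold higher in every line.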

How the data were processed

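The table deposited by the authors holds raw counts per gene, made with STAR 2.7.3a and RSEM 1.3.1 on hg38, per the submitters' processing notes. How RSEM estimates became whole counts, the annotation and the strand setting are not given in the sources used here. Libraries were extracted with Trizol and sequenced as paired ends, per the labels' protocols, which spell VMCUB as VMCUB1. A name table gave symbols of 35414 genes, and GENCODE 29 matched 35497 and gave coordinates.

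The members and gene lists were chosen with earlier results of these data known. Each line was fitted on its 6 libraries with R 4.3.3 and edgeR 4.0.16 (TMM, filterByExpr, robust quasi-likelihood test, 4 residual degrees of freedom, Benjamini-Hochberg threshold 0.05), and DMSO levels with an F test on 24 libraries. The SE was taken as the absolute log2 fold change over the square root of F. CPM used TMM sizes over all 48 libraries. Folds on 1 to 3 counts carry a 95% exact interval.

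Named were the 4 members, EZH2, up to 4 genes per list called in the most lines, the 3 genes most like each member, up to 3 neighbours per member, and 3 genes on each side of the limit. The 13 lists were 6 of related genes, 6 of cell type markers and PRC2, whose 6 genes were called higher in 5 (10.4%) and lower in 14 (29.2%) of 48 tests, against 18.8% and 13.8% of all genes, and in 8 and 10 with library totals. On simulated counts with 200 changed genes, recovery of 2-fold changes was 73% (T24, 15337 genes) to 92% (639V, 15973 genes), and 76% in the DMSO comparison (17808 genes). Replicate numbers did not pair libraries: 24 correlations of same-numbered deviations ranged from -0.21 to 0.13. Alternatives were RLE factors, library totals, no filter, DESeq2 1.42.0, a replicate block, 1 fit of all 48 libraries and leaving out each library.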

Additional observations from a re-analysis of the deposited data

Results flagged for a closer look

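In 12 checks for a line standing apart, 2 values stood apart from the other 7 lines. Both are rises that the choice of genes used, cut off at 2-fold, so the usual chance rate of such values does not apply to them. PDLIM3 in TCCSUP had a log2 fold change of 5.55, and TMEM37 in HT1376 one of 5.03. TMEM37 in HT1376 rests on 3 counts in DMSO.

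Several list genes and neighbours were called higher in 1 line and lower in another, with groups that did not overlap. These differences between lines were not tested. ACTA2 and PDLIM1 were higher in 639V (1.10 and 1.21) and lower in SW780 (-0.72) and KU1919 (-0.65). LUM was 3.12 in HT1376 and -0.29 in TCCSUP, and PECAM1 2.33 in HT1376 and -0.40 in SW780. In HT1376 LUM passed the filter only through treated libraries (0.136 to 1.17 CPM), so a rise there was close to fixed. GATA3 stood at 1.05 in VMCUB and -0.13 in SW780, and PPARG at 1.23 in VMCUB and -0.73 in HT1376. TCCSUP had the highest values of MT2A (0.37), RBBP4 (0.17) and SYT1 (1.61), against -1.12 in KU1919, -0.67 in SW780 and -0.44 in KU1919. PDLIM7 was 0.48 in HT1376 and -0.54 in KU1919, and CD14 0.95 in T24 and -1.28 in HT1376. With library totals in place of TMM scaling, the lower calls of GATA3 (0.07, adjusted p = 0.155 by edgeR) and PECAM1 (-0.20, adjusted p = 0.137) in SW780 were lost, so neither was then lower in any line. MYH3 was 0.94 in SW780 and -0.81 in TCCSUP. Of the neighbours, ANKRD37 was 0.48 in SW780 and -1.09 in TCCSUP, and DBI 0.14 in 639V and -0.85 in SW780.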

How the results depend on the processing

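For the 4 genes, 191 of 192 log2 fold changes under other settings stayed within the spread between replicates, and the other was SLC30A3 in SW780, 1.40 with library totals, where that scaling moved the median of all genes to 0.22 (0.13 in VMCUB). All 192 values with 1 library left out kept their direction, and 4 fell under 2-fold: SLC30A3 in HT1197 (0.93), PDLIM3 in KU1919 (0.94), and TMEM37 in KU1919 (0.96) and TCCSUP (0.95). The DMSO differences between lines passed under every setting run, and the replicate block gave 3.30, 4.62, 4.87 and 5.58. Replicate numbers did not pair the samples, and 6 of 24 libraries correlated best with their own number. With the replicate block, lower calls went from 2619 to 1470 in HT1376 and from 144 to 26 in T24. Library totals gave 8499 higher and 2839 lower calls in SW780 (main 5208 and 5114), and 685 lower in HT1197, 90 in T24, 1655 in 639V and 826 in VMCUB (main 1215, 144, 2759 and 1698). The share of calls that were higher moved from 60.3% to 75.6% in HT1197, 50.5% to 75.0% in SW780, 56.4% to 71.9% in 639V and 59.9% to 79.8% in VMCUB. SUZ12 and SNX17 were then lower in 3 lines each and KRT18 in 2. DESeq2 gave 834 lower calls in KU1919, 576 in T24 and 2929 in VMCUB. A fit of all 48 libraries gave 1063 higher in HT1197, 2601 in KU1919 and 2762 in T24, and 199 lower in HT1197, 1995 in KU1919, 1582 in T24, 1366 in 639V and 3880 in VMCUB. With 1 library left out, higher calls were 858 (without DMSO replicate 1) to 3047 (without CPI-0209 replicate 1) in KU1919, 905 (without CPI-0209 replicate 2) to 1677 in T24, and 1475 (without CPI-0209 replicate 2) to 3807 (without DMSO replicate 3) in VMCUB. Lower calls were 709 (without DMSO replicate 2) to 1130 in HT1197, 1587 (without CPI-0209 replicate 3) to 3198 in HT1376, 113 to 2375 (without the same 2 libraries) in KU1919, 31 (without CPI-0209 replicate 2) to 188 in T24, and 297 (without CPI-0209 replicate 1) to 3871 (without DMSO replicate 3) in VMCUB. Without the filter more genes were tested, and 68 in place of 10 were at least 2-fold higher in every line. How many of the 68 were newly tested was not counted, and other causes were not tested. Depth limits the DMSO levels of ADAMTS2, PDLIM3 and TMEM37, which rest on as few as 7, 6 and 3 counts over 3 libraries.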
